A study of Mus musculus with 19 samples.

Results

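The genes described here are the subunits and inhibitors of NF-κB, taken as a list of 10 by name: the subunit genes Nfkb1, Nfkb2, Rel, Rela and Relb, the inhibitor genes Nfkbia, Nfkbib and Tnfaip3, and Nfkbiz and Bcl3, which encode nuclear proteins of the inhibitor family. The expression table used here held 9 of these 10 genes among 12629. Rel, the gene of c-Rel, was not analysed here. The libraries were RNA-seq profiles of GFP-positive cells that were sorted from adult dorsal root ganglia (DRGs) after injection of AAV vectors. In the GFP groups the vector carried a membrane-targeted GFP driven by a CMV promoter. In the α9k1 groups one vector carried V5-tagged α9 integrin under a CAG promoter and a second carried kindlin-1 fused to GFP under a CMV promoter. The dorsal root was either left intact (naive) or crushed at the time of injection (crush), and all ganglia were taken 8 weeks later. There were 5 libraries of GFP-naive, 6 of α9k1-naive, 4 of GFP-crush and 4 of α9k1-crush cells. Every group, the GFP controls included, had received AAV injection, enzymatic dissociation and sorting. In the α9k1 groups the sort selected cells by kindlin-1-GFP, so that cells with kindlin-1 and without α9 integrin could be included. The labels give the animals as C57BL/6 mice, whereas the study's methods describe young adult male Lewis rats, and the reads had been aligned to the mouse genome.

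NF-κB is a family of dimeric transcription factors that is held in the cytoplasm by IκB proteins. Receptors for cytokines and microbial products activate the IκB kinase complex, which marks IκBα for degradation and lets RELA-containing dimers enter the nucleus. A slower, noncanonical route processes the NFKB2 precursor and acts through RELB. Several inhibitors, among them Nfkbia and Tnfaip3, are themselves target genes of the pathway and close a negative feedback loop. In DRGs the pathway is known from neuronal survival, from inflammatory pain and from the glia and macrophages around sensory neurons.

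The promoters of the genes on which the results turn are shown because the pathway is known to bind κB motifs in its own inhibitor genes. RefSeq promoter windows (GRCm38.p6) of 300 bases, from 250 bases before to 50 bases after a transcription start, were held for 7 of the 10 genes, in 10 windows. Nfkb1, Relb and Nfkbiz had none in the table used. These windows are mouse sequence, whereas the study's methods describe rats, so the bases and matches in the animals profiled may differ. The κB motif was searched on both strands and overlapping matches were kept. It occurred in 7 of the 10 windows, belonging to Nfkb2, Rel, Nfkbia, Tnfaip3 and Bcl3, whereas 8.46% of all 32851 windows held it. Of the 3 Nfkb2 windows 2 overlap each other, so these are not separate observations. The Rela and Nfkbib windows and the second Tnfaip3 window held no match, which says only that these letters are not in those windows. The 250 bases before the start are given 5′ to 3′ on the gene's strand, with κB matches in capitals, for Nfkbia (chr12:55492648-55492897, minus strand), Tnfaip3 (chr10:19015411-19015660, minus strand), Nfkbib (chr7:28766645-28766894, minus strand) and Rela (chr19:5637291-5637540, plus strand). In the Nfkbia window the match spans bases -29 to -20 before the start, and in the Tnfaip3 window the matches span bases -125 to -116 and -12 to -3.
Nfkbia: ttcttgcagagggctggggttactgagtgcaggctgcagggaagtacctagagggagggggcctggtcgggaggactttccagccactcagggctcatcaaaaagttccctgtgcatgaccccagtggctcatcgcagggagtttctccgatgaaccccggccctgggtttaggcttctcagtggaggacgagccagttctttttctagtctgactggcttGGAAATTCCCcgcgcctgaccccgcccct
Tnfaip3: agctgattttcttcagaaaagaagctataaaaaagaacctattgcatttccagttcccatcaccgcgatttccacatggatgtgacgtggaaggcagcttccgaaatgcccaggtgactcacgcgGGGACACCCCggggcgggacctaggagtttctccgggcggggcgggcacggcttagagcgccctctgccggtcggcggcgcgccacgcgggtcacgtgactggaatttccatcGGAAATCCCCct
Nfkbib: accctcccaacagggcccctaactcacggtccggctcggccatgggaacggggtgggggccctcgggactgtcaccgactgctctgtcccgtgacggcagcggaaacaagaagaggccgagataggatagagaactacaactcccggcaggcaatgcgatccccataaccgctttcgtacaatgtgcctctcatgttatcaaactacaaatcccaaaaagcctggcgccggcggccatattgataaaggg
Rela: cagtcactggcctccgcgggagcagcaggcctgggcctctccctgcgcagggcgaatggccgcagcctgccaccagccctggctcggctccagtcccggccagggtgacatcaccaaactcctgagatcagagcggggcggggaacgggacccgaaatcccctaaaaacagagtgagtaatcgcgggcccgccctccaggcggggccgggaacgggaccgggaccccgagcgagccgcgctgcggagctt

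Values are log2 levels as the authors normalized them for gene length and depth, so a difference of 1 is a doubling. The libraries held 36.4 to 87.6 M read pairs, of which 47.5% to 54.1% aligned. Kindlin-1 (Fermt1) was at 5.58 ± 0.33 (SD, n = 6) in α9k1-naive and 7.17 ± 0.66 (SD, n = 4) in α9k1-crush libraries, against 0.62 ± 0.16 (SD, n = 5) and 0.57 ± 0.12 (SD, n = 4) in the 2 GFP groups. Itga9, the α9 integrin gene, ranged from 5.53 to 7.51 in α9k1-crush libraries and from 2.38 to 5.16 in α9k1-naive libraries, of which the lowest was just below the highest GFP library at 2.40. Sorted cells were labelled as neurons, and all 22 neuron markers and all 14 satellite glia and Schwann cell markers were in the table. The log2 sum of the glial markers had a median of 15.97 in GFP-naive, 16.55 in α9k1-naive, 15.38 in GFP-crush and 14.94 in α9k1-crush libraries, against 13.99, 13.55, 14.41 and 14.49 for the neuron markers. The glial sum rested on Apoe, which alone had a mean level of 15.63 in GFP-naive libraries. Without Apoe, a choice made after its level was seen, the sum of the other 13 had medians of 13.77, 12.92, 13.92 and 13.53 in the same order, below the neuron markers in every group. In bulk libraries such as these, fewer cells of a type and less RNA per cell cannot be told apart.

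The inhibitors and their relatives made up 10 of 11 called results over 4 comparisons, but they are also most of the 9 measured genes. A gene called in several comparisons is counted each time, and the comparisons share groups. The share of all genes called in each comparison is given with the counts below. Nfkbia and Tnfaip3 were higher in α9k1 than in GFP cells with and without crush, and Nfkbia was lower after crush in GFP cells. The subunit Rela was not called in any comparison of this fit. Differences were tested with limma on all 12629 genes, with 3 components of library quality as covariates, and a gene was called at an adjusted p under 0.1, the threshold of the study. A fold change from this fit is adjusted for those components and can differ from the difference of the group means. Without those components the subunits were called too in α9k1-crush against α9k1-naive cells. Nfkb1 was higher and Nfkb2, Rela and Relb were lower, against 28.5% and 27.1% of all genes.

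**Figure D1:**
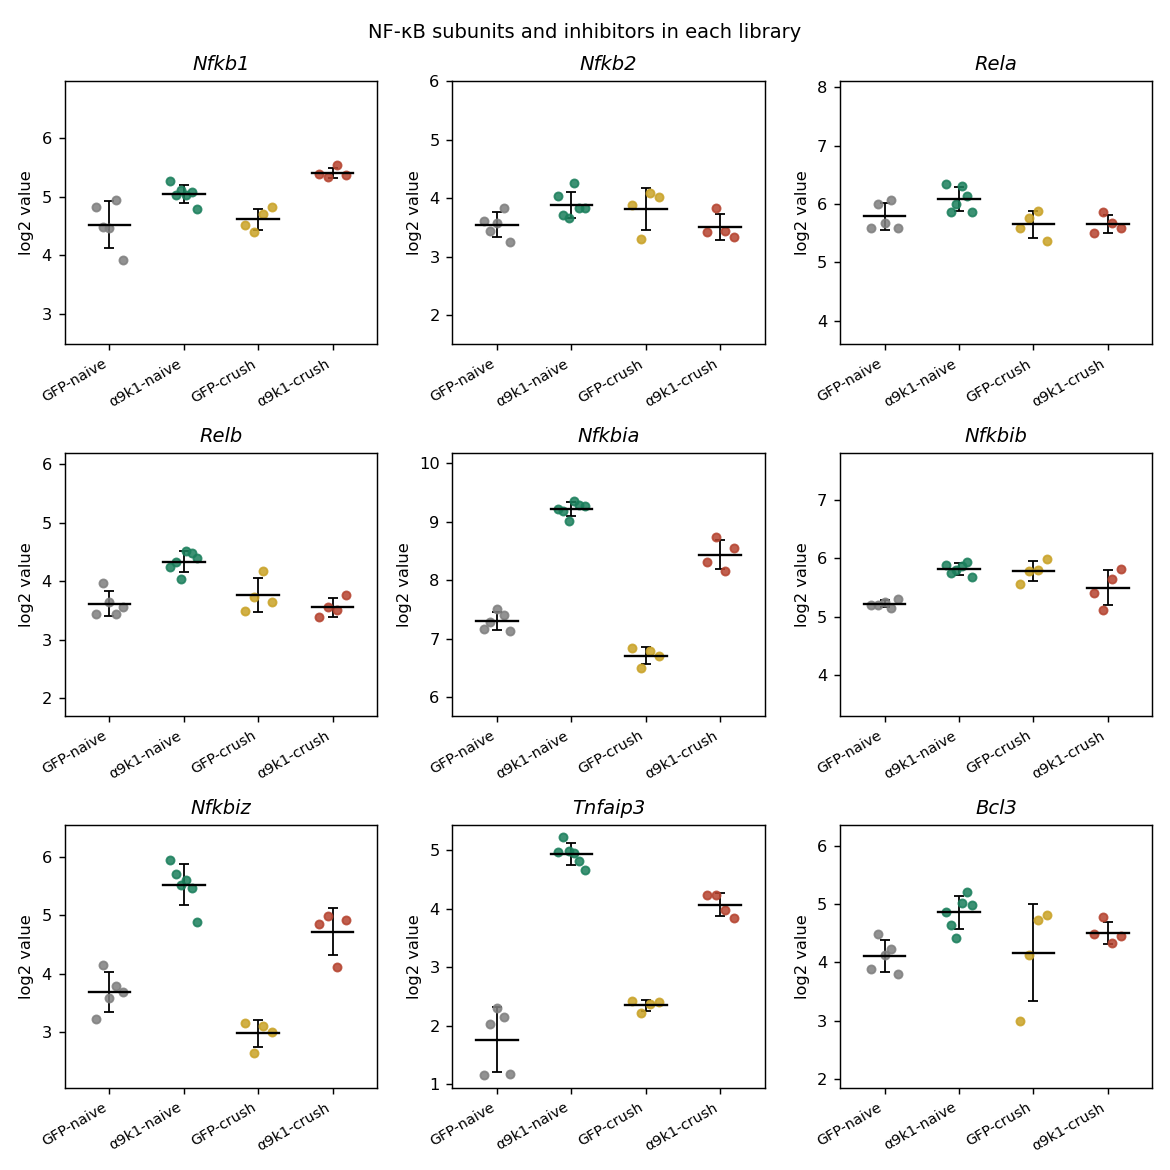
Log2 level of each of the 9 measured genes in every library, with 1 panel per gene, points for libraries, horizontal bars for group means and whiskers for the SD. All vertical axes span the same log2 range, and the 6 α9k1-naive libraries lie above the 5 GFP-naive libraries for Relb, Nfkbia, Nfkbib, Nfkbiz and Tnfaip3.

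Nfkbia encodes IκBα, the inhibitor that is degraded and resynthesized in canonical signaling. It was the most abundant of the 9 genes in every group. GFP-naive libraries were at 7.13, 7.17, 7.29, 7.41 and 7.51, and the 6 α9k1-naive libraries ranged from 9.02 through a median of 9.24 to 9.36. GFP-crush libraries were at 6.50, 6.70, 6.79 and 6.84, and α9k1-crush libraries at 8.16, 8.32, 8.55 and 8.74. The 4 groups did not overlap, with GFP-crush lowest, then GFP-naive, α9k1-crush and α9k1-naive. In naive ganglia Nfkbia was 4.17-fold higher with α9k1 (log2 fold change 2.06, SE 0.12, adjusted p = 1.56e-08). After crush it was 5.59-fold higher with α9k1 (log2 fold change 2.48, SE 0.26, adjusted p = 2.74e-04). Without the quality components this log2 fold change was 1.73 (adjusted p = 2.51e-08), and in a fit to the 2 crush groups alone it was 2.61 and not called (adjusted p = 0.540). In GFP cells crush lowered it by a log2 fold change of -0.70 (SE 0.12, adjusted p = 0.00217). Between α9k1-crush and α9k1-naive cells the group means differed by -0.78, but the fitted change was -0.28 (95% confidence interval -0.74 to 0.18, adjusted p = 0.493) and was not called.

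Tnfaip3 encodes A20, a ubiquitin-editing enzyme that shuts off signaling upstream of the IκB kinases. It was the least abundant of the 9 genes in GFP cells. GFP-naive libraries were at 1.15, 1.17, 2.03, 2.14 and 2.31, and GFP-crush libraries at 2.21, 2.37, 2.40 and 2.42. The α9k1-naive libraries ranged from 4.66 through a median of 4.96 to 5.22, and the α9k1-crush libraries were at 3.84, 3.98, 4.23 and 4.23. Every α9k1 library was above every GFP library, and the α9k1-crush libraries lay below the α9k1-naive ones. The α9k1 effect was 8.32-fold in naive ganglia (log2 fold change 3.06, SE 0.20, adjusted p = 5.77e-08). After crush it was 5.34-fold (log2 fold change 2.42, SE 0.44, adjusted p = 0.0179). Without the quality components it was 1.72 on the log2 scale (adjusted p = 9.28e-06), and with the 2 crush groups alone it was 2.02 and not called (adjusted p = 0.573). The call after crush was lost without GFP-crush replicate 2, when the log2 fold change was 2.30 with an adjusted p of 0.140. In GFP cells the change with crush was 0.46 (SE 0.20, adjusted p = 0.144) and was not called, but without GFP-naive replicate 3 it was 0.63 and called (adjusted p = 0.0617).

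Nfkbib encodes IκBβ, an inhibitor with slower turnover. GFP-naive libraries were within 5.15 to 5.30, α9k1-naive libraries within 5.67 to 5.93, GFP-crush libraries within 5.56 to 5.99 and α9k1-crush libraries within 5.12 to 5.82. The GFP-naive libraries were below all α9k1-naive and all GFP-crush libraries, and the α9k1-crush libraries overlapped every other group. It was 1.44-fold higher in α9k1-naive than in GFP-naive cells (log2 fold change 0.53, SE 0.15, adjusted p = 0.0217). It was 1.48-fold higher in GFP-crush than in GFP-naive cells (log2 fold change 0.57, SE 0.15, adjusted p = 0.0228), a call that was lost in a fit to these 2 groups alone (0.54, adjusted p = 0.146). With α9k1 after crush the fitted change was -0.29 (SE 0.33, adjusted p = 0.857). Its exons share 14.5% of their bases with Ccer2 and 1.94% with Sirt2 on the opposite strand, and reads from the 2 strands were not separated in these libraries.

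Nfkbiz encodes IκBζ, a nuclear protein that takes part in inducing secondary response genes such as Il6. GFP-naive libraries were at 3.22, 3.58, 3.69, 3.79 and 4.14, and α9k1-naive libraries ranged from 4.89 through a median of 5.56 to 5.95. GFP-crush libraries were at 2.65, 3.0, 3.10 and 3.16, and α9k1-crush libraries at 4.12, 4.85, 4.92 and 4.99. GFP-crush was below GFP-naive without overlap, and both α9k1 groups were above their GFP group. It rose 3.32-fold with α9k1 in naive ganglia (log2 fold change 1.73, SE 0.26, adjusted p = 2.44e-04). After crush the fitted change was 1.99 (SE 0.56, adjusted p = 0.205), which was not called although the groups did not overlap. Without α9k1-naive replicate 6 it was 2.65 and called (adjusted p = 0.0173). In GFP cells it fell with crush (log2 fold change -0.81, SE 0.26, adjusted p = 0.0510). Without GFP-naive replicate 2 or GFP-crush replicate 2 the last call was lost, with log2 fold changes of -0.68 (adjusted p = 0.182) and -0.62 (adjusted p = 0.178).

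Bcl3 encodes a nuclear inhibitor-family protein that binds the p50 and p52 subunits. GFP-naive libraries were at 3.80, 3.89, 4.12, 4.24 and 4.49 and α9k1-naive libraries ranged from 4.42 through 4.93 to 5.21, so that these groups overlapped. GFP-crush libraries were at 3.01, 4.12, 4.72 and 4.82, the widest spread of any gene and group here (SD 0.83), and α9k1-crush libraries at 4.32, 4.46, 4.49 and 4.77. Bcl3 was called only in α9k1-naive against GFP-naive cells (log2 fold change 0.99, SE 0.35, adjusted p = 0.0544). That call was lost when the replicate number was fitted as a block. Omitting single libraries removed the call in 3 of 19 fits: without GFP-naive replicate 1 the adjusted p was 0.108 (log2 fold change 0.96), without α9k1-naive replicate 6 it was 0.125 (1.18) and without GFP-crush replicate 3 it was 0.112 (0.87). Bcl3 and Relb lie 179 kb apart on chromosome 7 of the mouse genome.

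Among the subunits, Relb, the partner of p52 in the noncanonical route, was the only one called. GFP-naive libraries were at 3.44, 3.44, 3.57, 3.64 and 3.96, and α9k1-naive libraries ranged from 4.03 through 4.36 to 4.51. GFP-crush libraries were at 3.50, 3.65, 3.74 and 4.17, and α9k1-crush libraries at 3.38, 3.51, 3.55 and 3.76. The α9k1-naive group stood above GFP-naive and above α9k1-crush without overlap, and the GFP-naive, GFP-crush and α9k1-crush groups overlapped. It was 1.85-fold higher in α9k1-naive than in GFP-naive cells (log2 fold change 0.89, SE 0.17, adjusted p = 0.00142). In α9k1 cells the fitted change with crush was -0.65 (SE 0.30, adjusted p = 0.223).

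Nfkb1, the gene of the p105 precursor and p50, was at 3.92, 4.46, 4.48, 4.82 and 4.95 in GFP-naive, and from 4.79 through 5.06 to 5.27 in α9k1-naive libraries, so that the groups overlapped. The fitted change between them was 0.31 (SE 0.19, adjusted p = 0.258), and without GFP-naive replicate 1 it was 0.48 and called (adjusted p = 0.0685). GFP-crush libraries were at 4.41, 4.52, 4.71 and 4.82 and α9k1-crush libraries at 5.34, 5.37, 5.39 and 5.54. The 4 α9k1-crush libraries were the highest of all 19 and shared no value with any other group. The fitted changes were 0.68 (SE 0.41, adjusted p = 0.654) against GFP-crush and 0.56 (SE 0.34, adjusted p = 0.363) against α9k1-naive cells, neither of them called. Nfkb1 was the only one of the 9 genes whose mean was highest in the α9k1-crush group.

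Rela encodes the main transactivating subunit of canonical dimers. Its libraries ranged from 5.60 to 6.07 in GFP-naive, 5.86 to 6.34 in α9k1-naive, 5.37 to 5.88 in GFP-crush and 5.51 to 5.87 in α9k1-crush cells. The α9k1-naive group had the highest mean, and it overlapped GFP-naive. The fitted change with α9k1 was 0.18 in naive ganglia (95% confidence interval -0.18 to 0.55) and 0.08 after crush (95% confidence interval -0.71 to 0.88). Nfkb2, the gene of p100 and p52, ranged from 3.26 to 3.84 in GFP-naive, 3.67 to 4.26 in α9k1-naive, 3.30 to 4.09 in GFP-crush and 3.34 to 3.83 in α9k1-crush cells. Every pair of groups overlapped. The fitted change of Nfkb2 with α9k1 in naive ganglia was 0.41 (SE 0.17, adjusted p = 0.101), just outside the threshold. It was called without GFP-naive replicate 1 (0.48, adjusted p = 0.0912), GFP-naive replicate 4 (0.51, adjusted p = 0.0873) or α9k1-naive replicate 1 (0.39, adjusted p = 0.0960). Exons of Nfkb2 share 11.6% and 6.52% of their bases with 2 genes on the opposite strand.

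**Figure D2:**
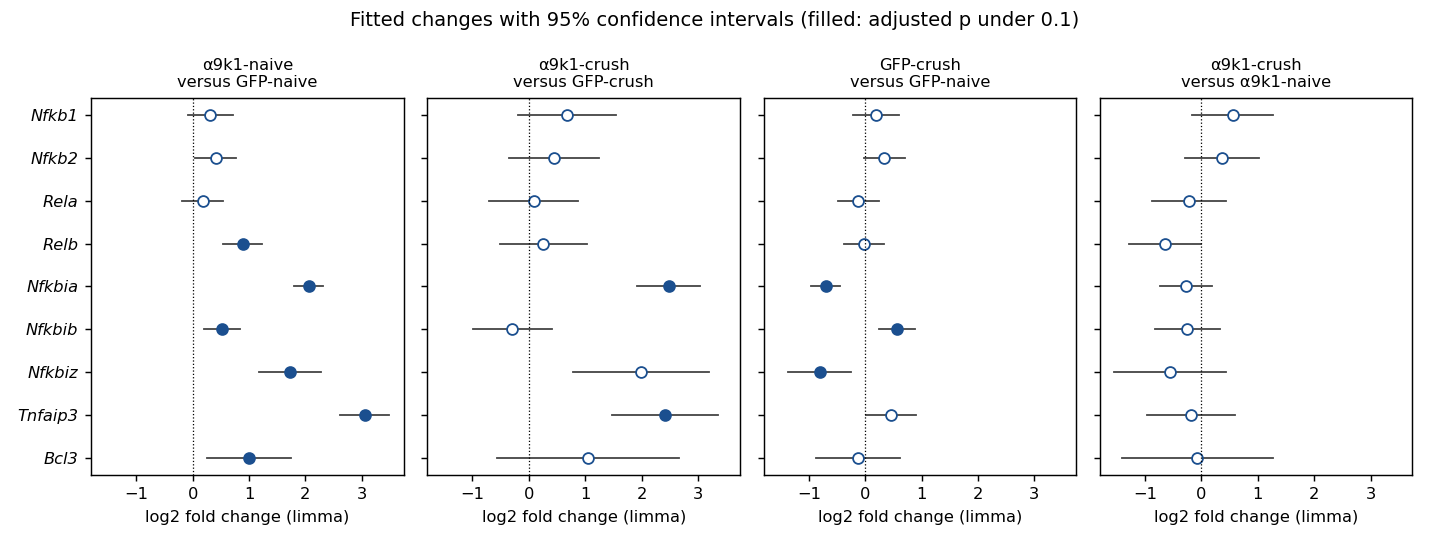
Fitted log2 fold change of each gene (horizontal axis) in 4 comparisons, with 95% confidence intervals as lines and called genes as filled points. In α9k1-naive against GFP-naive cells 6 points are filled, all to the right of 0, and in α9k1-crush against α9k1-naive cells none is filled.

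Counted over the list, 6 of the 9 genes were higher and 0 lower with α9k1 in naive ganglia, where 11.4% of all genes were called higher and 17.6% lower. The median fitted change of the 9 genes was 0.89, and that of all genes was -0.08. In 5 of the 9 genes all α9k1-naive libraries exceeded all GFP-naive libraries, which held for 8.43% of all genes, and in 0 did all lie below, against 13.2%. After crush 2 of the 9 were higher with α9k1 and 0 lower, against 0.728% and 0.182% of all genes, and the median change was 0.68 against 0.01 for all genes. In 4 of the 9 all α9k1-crush libraries exceeded all GFP-crush libraries, against 20.0% of all genes, and in 0 were all lower, against 20.8%. The 4 genes were Nfkb1, Nfkbia, Nfkbiz and Tnfaip3.

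In GFP cells crush raised 1 of the 9 (Nfkbib) and lowered 2 (Nfkbia and Nfkbiz), against 7.39% and 15.7% of all genes. With so few genes both counts were near those shares. The libraries of these 3 genes did not overlap between the groups, which held for 7.59% of all genes in the upward and 12.2% in the downward direction. With quantile normalization or with libraries centred on the same median this split became 3 higher and 2 lower, the added genes being Nfkb2 and Tnfaip3. Of all genes 9.55% were then called higher and 10.9% lower with quantile normalization, and 14.5% and 9.34% with centring. Centring moved the median change of all genes in this comparison from -0.08 to 0.06. In α9k1 cells limma called 0 of the 9 with crush, with 1 (Relb) at an unadjusted p under 0.05, against 4.47% of all genes called higher and 5.27% lower. In these cells all crush libraries were higher for 1 gene (Nfkb1) and all were lower for 3 (Relb, Nfkbia and Tnfaip3), against 17.4% and 16.1% of all genes.

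The interaction compares the change with α9k1 after crush with that in naive ganglia. limma called 0 of the 9 genes, with 1 (Nfkbib) at an unadjusted p under 0.05, against 2.20% of all genes. The estimates ran from -0.82 for Nfkbib (SE 0.31, adjusted p = 0.245) to 0.42 for Nfkbia (SE 0.25, adjusted p = 0.471). For Tnfaip3 it was -0.64 (SE 0.42, adjusted p = 0.530). That Relb, Nfkbib, Nfkbiz and Bcl3 were called in naive and not in crushed ganglia does therefore not show that their response differed.

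The α9k1-crush group depended most on the quality components, and its component 3 was at -1.51 ± 0.35 (SD, n = 4) against 0.74 ± 0.73 (SD, n = 6) in α9k1-naive libraries. Without these components 7 genes were called lower in α9k1-crush than in α9k1-naive cells (Nfkb2, Rela, Relb, Nfkbia, Nfkbib, Nfkbiz and Tnfaip3) and 1 higher (Nfkb1), against 27.1% and 28.5% of all genes in that fit. Rela differed there by -0.43 (adjusted p = 0.0155). In the interaction 4 were then called (Nfkb2, Relb, Nfkbib and Tnfaip3), against 39.4% of all genes. Against GFP-crush 4 were higher (Nfkb1, Nfkbia, Nfkbiz and Tnfaip3) and 1 was lower (Nfkbib), where 29.6% and 28.3% of all genes were called. The quality of these libraries and the group cannot be told apart. The fitted change of Nfkb2 against GFP-crush was 0.44 and the difference of its means was -0.31, and for Relb these were 0.26 and -0.21, so no direction is given for either.

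**Figure D3:**
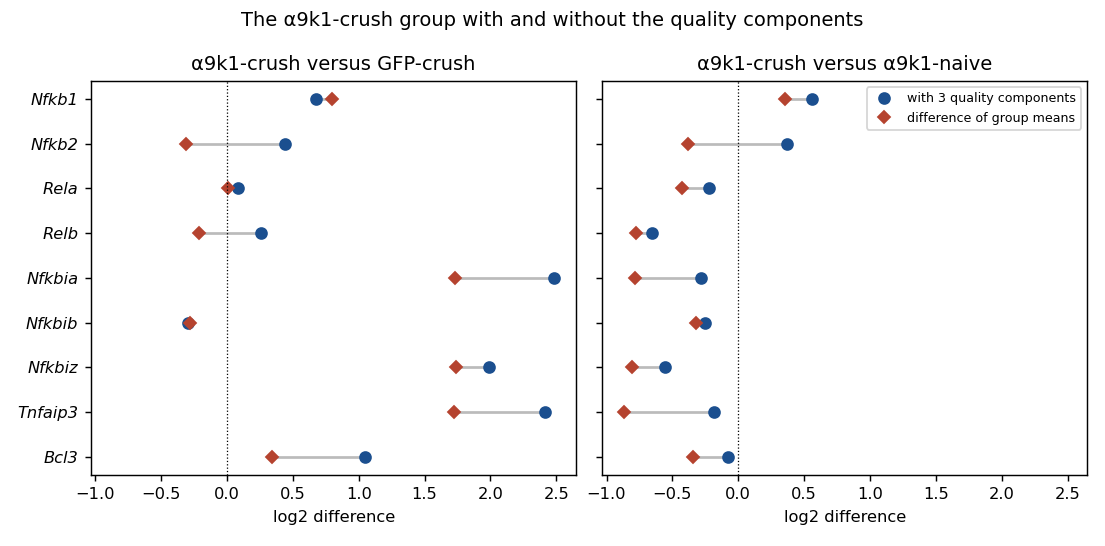
For each gene the fitted log2 change with the 3 quality components (circles) and the plain difference of group means (diamonds), for α9k1-crush against GFP-crush and against α9k1-naive cells. Nfkbia, Nfkbiz and Tnfaip3 lie right of 0 either way against GFP-crush, and Nfkb2 changes side in both panels.

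The relation of inhibitor to subunit within a library does not depend on a scaling factor shared by all genes of that library. On the length-normalized log2 scale Nfkbia exceeded Rela by 1.51 ± 0.22 (SD, n = 5) in GFP-naive and by 3.13 ± 0.20 (SD, n = 6) in α9k1-naive libraries. The difference was 1.06 ± 0.28 (SD, n = 4) in GFP-crush and 2.78 ± 0.21 (SD, n = 4) in α9k1-crush libraries. The lowest α9k1 library was at 2.49 and the highest GFP library at 1.84, so the α9k1 and GFP libraries did not overlap. Tnfaip3 lay below Rela in every library, by -4.03 ± 0.44 (SD, n = 5) in GFP-naive and -1.15 ± 0.28 (SD, n = 6) in α9k1-naive libraries. Nfkbia exceeded Nfkbib by 2.08 ± 0.18 (SD, n = 5) in GFP-naive and 0.93 ± 0.27 (SD, n = 4) in GFP-crush libraries, as the IκBα gene fell and the IκBβ gene rose.

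Over the 19 libraries all 36 pairs of the 9 genes were positively correlated, with a median r of 0.51, and only Nfkbia with Nfkbiz (r = 0.96) and Nfkbia with Tnfaip3 (r = 0.92) exceeded 0.9. These values include the differences between groups. After each group's mean was removed the median r was 0.27, with values from -0.30 (Nfkbia with Nfkbib) to 0.65 (Nfkbia with Nfkb2). Outside the list, the genes with the most similar levels over the 19 libraries were Socs3 (r = 0.99) and Irf1 (r = 0.99) for Nfkbia. They were Socs3 (r = 0.97) and Zfp36 (r = 0.97) for Nfkbiz, Birc3 (r = 0.97) and Sbno2 (r = 0.97) for Tnfaip3, and Nppb (r = 0.92) and Cited1 (r = 0.89) for Relb. For the other 5 genes the highest r ranged from 0.82 (Nfkb2 with Rftn1) to 0.88 (Bcl3 with Tmem88b). The points share groups, libraries and quality differences, and these values describe likeness of level alone.

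Upstream of NF-κB, 27 of the 43 listed ligands, receptors and adaptors were in the table, and with α9k1 in naive ganglia 16 were higher and 1 was lower, where 11.4% and 17.6% of all genes were called. Il1b, a cytokine that activates the pathway through the interleukin-1 receptor, rose by a log2 fold change of 6.39 (SE 0.50, adjusted p = 3.29e-07), and Il1a by 3.01. Their mean levels in GFP-naive libraries were low, at 1.65 and 0.31, where the size of a fold change is less certain. Birc3 and Birc2, ubiquitin ligases of the TNF receptor complex, rose by 2.91 and 1.72, the scaffold kinase gene Ripk1 by 1.47 and the TNF receptor gene Tnfrsf1a by 1.07. The median change of the list was 0.71. In GFP cells crush raised 5 and lowered 7 of the 27, against 7.39% and 15.7% of all genes, and in α9k1 cells it raised 0 and lowered 4, against 4.47% and 5.27%. After crush 2 of the 27 were higher with α9k1, against 0.728% of all genes. These were Ripk1 (1.68, SE 0.31), whose call was lost without GFP-crush replicate 2 (1.43, adjusted p = 0.208), and Irak4 (1.19, SE 0.27), which was called in 12 of 19 fits that omitted a library. The Irak4 groups overlapped, with means of 2.21 in α9k1-crush and 1.95 in GFP-crush libraries, and without the quality components it was not called (0.26, adjusted p = 0.148). In a fit to the 2 crush groups alone neither Ripk1 (adjusted p = 0.544) nor Irak4 (adjusted p = 0.663) was called. In the interaction 3 of the 27 were called negative and 1 positive, against 2.20% of all genes in either direction. Cd40, the gene of a TNF family receptor, had an estimate of -4.32 (SE 0.72, adjusted p = 0.0133) and had risen by 3.76 with crush in GFP cells. Its mean level in GFP-naive libraries was 0.97, so the size of these changes is also less certain. The others were Birc3 (-1.52), Birc2 (-1.07) and Irak4 (1.02), which were called in 10, 12 and 12 of 19 fits that omitted a library. Tnf, Il1r1, Tlr4 and Cd40lg were among the listed genes that were not analysed here.

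The kinases that release NF-κB, their partner proteins, and ubiquitin ligase genes that act beside them (Btrc, Fbxw11, Rbck1, Rnf31 and Sharpin) were taken as 1 list of 17 genes. Of the 15 measured, 1 was higher (Map3k8, log2 fold change 3.12, SE 0.18, adjusted p = 1.18e-08) and 1 lower (Csnk2a1, -0.69) with α9k1 in naive ganglia, where 11.4% and 17.6% of all genes were called. Map3k8, also known as Tpl2, forms a complex with p105. After crush Map3k8 was again the only one called (2.05, SE 0.38, adjusted p = 0.0205), against 0.728% of all genes called higher, but with the 2 crush groups alone it was 1.07 and not called (adjusted p = 0.839). The 3 subunits of the IκB kinase complex were not called with α9k1 in naive ganglia, with fitted changes of 0.11 for Chuk, 0.25 for Ikbkb and 0.22 for Ikbkg. In GFP cells 0 of the 15 were higher and 3 lower after crush (Ikbkb, Tab1 and Csnk2a1), against 7.39% and 15.7% of all genes, so that the lower share was near that of all genes. The groups overlapped for all 3, and Tab1 and Csnk2a1 were each called in 11 of 19 fits that omitted a library. Ikbkb was lower by a log2 fold change of -0.57 (SE 0.19, adjusted p = 0.0587), was called in 14 of 19 fits that omitted a library, and was not called without the quality components (-0.35, adjusted p = 0.137) or under quantile normalization (-0.43, adjusted p = 0.124).

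Of 22 other measured inhibitors and IκB proteins, 7 were higher and 3 lower with α9k1 in naive ganglia, against 11.4% and 17.6% of all genes, so that the count of lower genes was near that of all genes. Nfkbie, the gene of IκBε, rose by 1.58 (SE 0.12, adjusted p = 3.87e-07), from 4.36 ± 0.23 (SD, n = 5) to 5.82 ± 0.08 (SD, n = 6). Zc3h12a, whose product regnase-1 degrades inflammatory mRNAs, rose by 2.22, and Commd1 fell by 0.38 on the log2 scale. After crush limma called 0 of the 22 with α9k1, with 3 higher and 1 lower at an unadjusted p under 0.05, and only 0.728% and 0.182% of all genes were called higher and lower. Of the 49 listed target genes 37 were measured, and 28 of these were higher and 1 lower with α9k1 in naive ganglia, with a median change of 1.92, against 11.4% and 17.6% of all genes. Il6 rose by 5.83 (SE 0.20, adjusted p = 9.30e-11), Ccl2 by 3.91, Ccl7 by 4.98, Cxcl10 by 4.51, Irf1 by 2.68 and Icam1 by 2.43. These are genes of cytokines, chemokines, a transcription factor and an adhesion molecule.

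After crush 9 of the 37 target genes were higher with α9k1, against 0.728% of all genes, among them Il6 (5.71, SE 0.43, adjusted p = 1.63e-05), Irf1 (2.74) and Ccl2 (3.02). The level of Il6 was low without α9k1, with means of 1.79 in GFP-naive and 0.43 in GFP-crush libraries. In a fit to the 2 crush groups alone Il6 (5.20, adjusted p = 0.148), Irf1 (2.84, adjusted p = 0.414) and Ccl2 (3.08, adjusted p = 0.414) were not called. Between α9k1-crush and α9k1-naive cells 0 of the 37 were higher and 10 lower, against 4.47% and 5.27% of all genes. All crush libraries lay below all naive ones for 23 of the 37, against 16.1% of all genes. Among the 10 were Ccl2 (-1.87, SE 0.28, adjusted p = 0.00239), Il6 (-1.56) and Irf1 (-0.94). The Il6 call was lost without α9k1-naive replicate 4 (-1.20, adjusted p = 0.124). With these 2 groups alone Il6 was -2.62 and called (adjusted p = 0.0785), whereas Ccl2 (-1.81, adjusted p = 0.112) and Irf1 (-1.13, adjusted p = 0.193) were not. In GFP cells crush raised 12 and lowered 11 of the target genes, against 7.39% and 15.7% of all genes. Il6 (-1.44), Ccl2 (-0.98), Irf1 (-0.999) and Ier3 (-0.94) fell as Nfkbia did. The cytokine gene Il1b (2.19) and the chemokine gene Ccl5 (2.37) rose, as did Tap1 (1.28) and Psmb9 (1.26), of antigen processing, and Icam1 (0.82), of adhesion. Bcl2a1d also rose (2.80), but it has near-identical copies that can share its reads. In the interaction 7 of the 37 were called, against 2.20% of all genes, all of them negative, including Icam1 (-1.50, SE 0.28, adjusted p = 0.0221) and Ccl5 (-3.42). Several of these calls were not stable. Of 19 fits that each omitted 1 library Birc3 was called in 10, Psmb9 in 10, Tap1 in 11 and Ccl5 in 17. The Ccl5 call was lost without GFP-naive replicate 3 (-2.76, adjusted p = 0.112) or α9k1-crush replicate 4 (-3.22, adjusted p = 0.102). Il1b, Traf1 and Birc3 stand in both the upstream and the target list, so these counts are not independent.

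**Figure D4:**
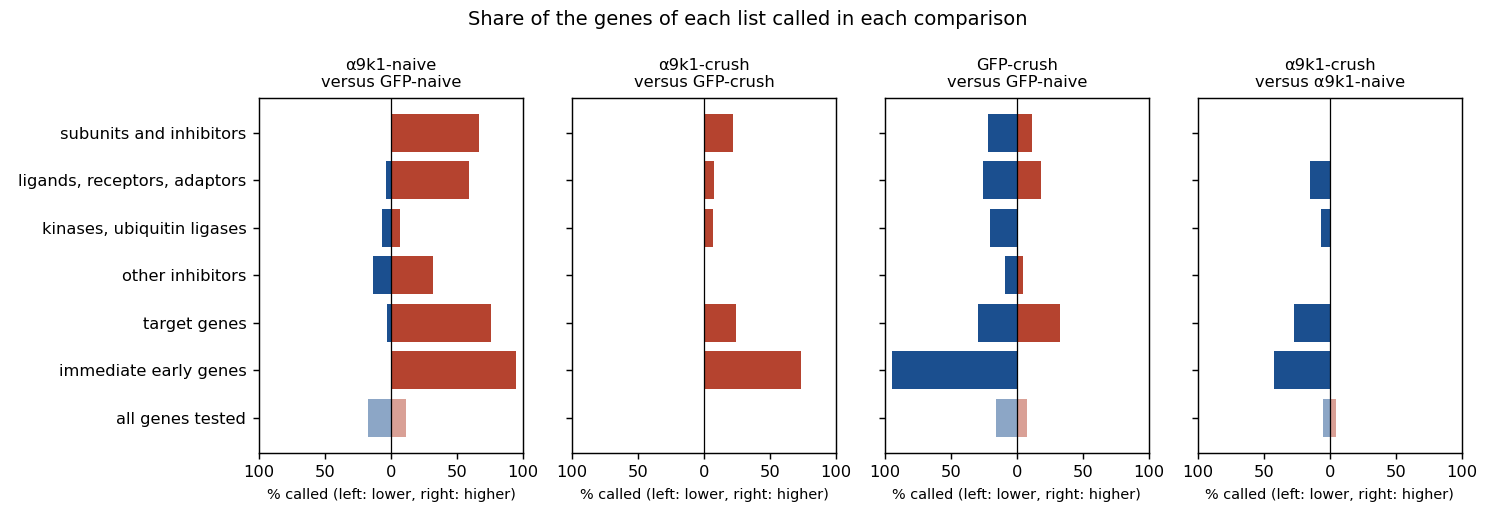
Percent of the measured genes of each list that were called higher (right, red) or lower (left, blue) in each comparison, with all 12629 genes as the lowest, paler bar. With α9k1 in naive ganglia the subunits and inhibitors, the upstream genes, the target genes and the immediate early genes extend mainly to the right, whereas 1 of the 15 genes of the kinase and ubiquitin ligase list stands on either side.

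Lists that were not drawn up as NF-κB genes also differed between the groups, although Ier3 stands in both the first of them and the target list. Immediate early and dissociation genes, a list of 19 that includes Fos, Jun and Atf3 and is known to respond to tissue handling as well as to signaling, were higher with α9k1 for 18 of 19 in naive and 14 of 19 in crushed ganglia, against 11.4% and 0.728% of all genes. In GFP cells 18 of 19 were lower after crush, and in α9k1 cells 8 of 19, against 15.7% and 5.27%. Their log2 summed level ranged from 12.28 to 12.58 in GFP-naive, 13.75 to 14.19 in α9k1-naive, 11.02 to 11.46 in GFP-crush and 12.41 to 13.03 in α9k1-crush libraries. GFP-crush was therefore lowest and α9k1-naive highest, as for Nfkbia. The part of dissociation in the levels of the NF-κB genes was not tested.

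Macrophage and microglia markers were higher with α9k1 in naive ganglia for 10 of 14 measured of 18 listed, against 11.4% of all genes. In GFP cells crush raised 11 of the 14, against 7.39%. Their log2 summed level ranged from 8.13 to 8.69 in GFP-naive, 9.42 to 9.92 in α9k1-naive, 9.79 to 10.33 in GFP-crush and 9.50 to 10.37 in α9k1-crush libraries. All GFP-crush libraries lay above all GFP-naive libraries, and of the NF-κB genes Nfkbib was called higher and Nfkbia and Nfkbiz lower between these groups. With α9k1 after crush limma called 0 of the 14, with 1 at an unadjusted p under 0.05, in a comparison that called 0.728% of all genes higher and 0.182% lower. Csf1r, a defining gene of these cells, was measured, and Cx3cr1 and Itgam were not analysed here. Endothelial and fibroblast markers were lower with α9k1 in naive ganglia for all 9 measured of 13 listed, against 17.6% of all genes. Their log2 sums ran from 9.60 to 9.91 in GFP-naive and from 7.02 to 8.40 in α9k1-naive libraries. Of 14 glial markers 4 were higher and 6 lower in that comparison (median change -0.34), although their summed level with Apoe was higher, and of 22 neuron markers 2 were higher and 5 lower, against 11.4% and 17.6% of all genes. Of 16 neutrophil and lymphocyte markers 2 were measured. The part of these cell types in the levels of the NF-κB genes was not tested.

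**Figure D5:**
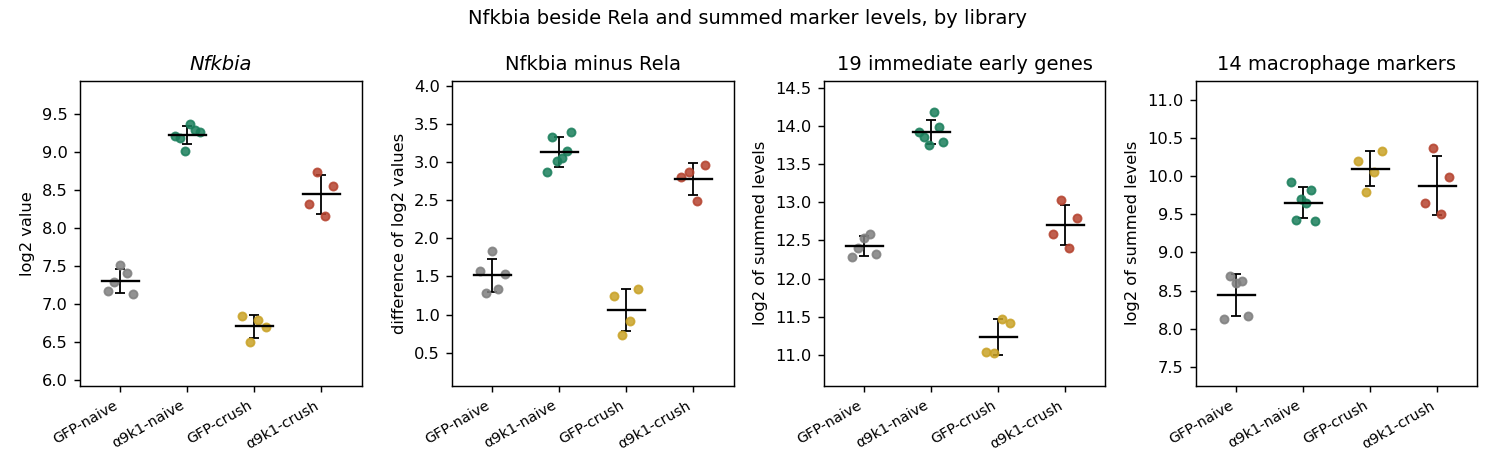
Log2 level of Nfkbia, the within-library difference of Nfkbia and Rela, and the log2 summed levels of the 19 immediate early genes and of the 14 measured macrophage markers, in every library, with group means and SDs. All 4 vertical axes span the same log2 range, and GFP-crush is the lowest group in the first 3 panels and has the highest mean in the last.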

How the data were processed

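RNA had been sequenced from sorted DRG cells with an ultra-low-input kit that does not keep strand (49.9% to 50.0% of reads lay on the annotated strand). Per the labels and the study's methods, the authors aligned reads to mm10 with STAR, collected library metrics with Picard and quantified genes with Salmon (versions not given in the sources used here). The deposited expression values are log2 of Salmon counts plus a small pseudocount, normalized by the authors with cqn for length and depth after removal of low genes. The deposited library metrics are read counts and, per the file headers, fractions, percent values and ratios. Of aligned bases 3.87% to 4.05% differed from the reference. The order of rows in the table, which has no gene names, was checked with the authors' mean column (r = 0.959 in the same order and 0.0899 shifted by 1 row). The authors' fold changes and p-values, also deposited, were not used.

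limma 3.58.1 in R 4.3.3 was fitted to all 19 libraries with 4 group means and the first 3 principal components of 48 library metrics (45.9%, 24.1% and 11.5% of variance), as in the study but without its batch term, which the labels do not give. P-values were adjusted by Benjamini-Hochberg over 12629 genes. Libraries of a group correlated at r = 0.948 to 0.976 and none were identical. The study describes its libraries as biological replicates, but nothing in the labels ties a library to 1 animal, so p-values measure the spread between these libraries, which may be partly technical. Depth limits low genes such as Tnfaip3, Il1a, Il1b, Il6 and Cd40 most, and no counts per gene were used, so no counting interval is given. Exon overlaps were taken from GENCODE vM21 (GRCm38). The fit was also run on simulated data with changes planted in the α9k1-naive libraries and scored against GFP-naive. The comparisons with the crush groups were not checked in this way.

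The genes, lists and comparisons were chosen with earlier results of these data known. All 10 genes were named, and from each other NF-κB list the 6 or fewer called genes with the smallest p in a comparison, plus Nfkbie, Nfkbid, Chuk, Ikbkb, Ikbkg, Map3k14, Il6, Ccl2 and Icam1 (Nfkbid and Map3k14 were not analysed here). Likeness names the 2 other genes with the highest Pearson r. Alternatives were no covariates, the compared groups alone, a filter of the lowest 25% of genes, quantile normalization, median centring, the replicate number as a block, and leaving out each library.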

Additional observations from a re-analysis of the deposited data

Results flagged for a closer look

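The value of Nfkbiz in α9k1-crush replicate 3, 4.12, lay far below the other 3 libraries of its group, of which the nearest was at 4.85. It was picked out by its gap to the nearest library relative to the range of the group, in a test over 36 gene and group combinations, and chance picks out about 1 in 20 groups. Without that library the fitted change of Nfkbiz with α9k1 after crush was 1.90 (adjusted p = 0.111), and it was not called, as with all libraries.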

How the results depend on the processing

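All 11 called results of the 9 genes kept their direction in every setting tried, and 8 of them were called in all 19 fits that left out 1 library. The exceptions were Bcl3 in α9k1-naive against GFP-naive (called in 16 of 19), Tnfaip3 in α9k1-crush against GFP-crush (18) and Nfkbiz in GFP-crush against GFP-naive (17). Main counts are 2 higher and 0 lower in α9k1-crush against GFP-crush, 1 higher and 2 lower in GFP-crush against GFP-naive, and 0 in α9k1-crush against α9k1-naive and in the interaction. Without the quality components these became 4 higher and 1 lower, 2 higher, 1 higher and 7 lower, and 4 in the interaction. With the compared groups alone, which leaves few degrees of freedom, 0 were higher in α9k1-crush against GFP-crush and 0 were higher in GFP-crush against GFP-naive. The share of all genes called in those fits is not given here, so these counts do not show a loss particular to these genes. Quantile normalization and median centring each gave 3 higher in GFP-crush against GFP-naive. Leaving out 1 library gave 1 to 3 higher in α9k1-crush against GFP-crush (1 without GFP-crush replicate 2), 1 to 2 higher in GFP-crush against GFP-naive (2 without GFP-naive replicate 3) and 1 to 2 lower there (1 without GFP-naive replicate 2 or GFP-crush replicate 2). The replicate numbers did not pair the libraries, as 4 of 25 same-numbered pairs had correlated deviations over 0.1 (range -0.27 to 0.15) and 3 of 18 libraries were closest to their own number. With the number as a replicate block 5 genes were higher in α9k1-naive against GFP-naive (Bcl3 was lost, adjusted p = 0.143) and 3 in α9k1-crush against GFP-crush (Nfkbiz was added).

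Log2 fold changes that changed sign were all uncalled in the main fit. In α9k1-crush against GFP-crush, without components Nfkb2 was -0.31 and Relb -0.21, and with the groups alone Rela was -0.69, Relb -0.28 and Bcl3 -0.52. In α9k1-crush against α9k1-naive, Nfkb2 was -0.38 without components and -0.19 with the groups alone, where Nfkbib was 0.47 and Bcl3 0.18, and Tnfaip3 was 0.17 with the block. In GFP-crush against GFP-naive, Relb was 0.15 and Bcl3 0.057 without components, Relb 0.13 under quantile normalization, and under centring Relb was 0.12, Rela 0.015 and Bcl3 0.0097, while Nfkbie was -0.0096 with the block. In the interaction without components Nfkb2 was -0.66, Nfkbia -0.19, Nfkbiz -0.10 and Bcl3 -0.40. Nfkb2 was -0.12 and Bcl3 -0.083 there under quantile normalization, Nfkb2 -0.10 and Bcl3 -0.074 under centring, and Rela 0.050 and Bcl3 -0.52 with the block. Chuk was -0.038 in α9k1-naive against GFP-naive with the groups alone. Leaving out 1 library changed signs within these ranges: in the interaction, Nfkb2 -0.33 to 0.27, Rela -0.26 to 0.068, Nfkbiz -0.22 to 0.53 and Bcl3 -0.16 to 0.22. In α9k1-crush against GFP-crush they were -0.12 to 0.24 for Rela and -0.049 to 0.43 for Relb. In GFP-crush against GFP-naive they were -0.19 to 0.0092 for Rela, -0.12 to 0.13 for Relb, -0.43 to 0.33 for Bcl3 and -0.037 to 0.18 for Nfkbie. In α9k1-crush against α9k1-naive they were -0.36 to 0.052 for Tnfaip3 and -0.29 to 0.46 for Bcl3, and for Chuk in α9k1-naive against GFP-naive -0.027 to 0.53. The causes were not tested.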
